A study of Mus musculus with 20 samples.

Results

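Sustained induced p65 sites with SOCS1 are stretches of macrophage DNA where p65 was called after LPS (lipopolysaccharide of bacterial walls, which activates TLR4) at both times in both genotypes, was not called before LPS, and where SOCS1 was called at both times in wild-type cells. They were chosen by overlap of at least 1 bp between deposited peak lists: a peak of the p65 list of WT cells at 30 min of LPS had to overlap a p65 peak in WT at 8 h, in KO at 30 min and in KO at 8 h, no p65 peak in either control list, and SOCS1 peaks in WT at 30 min and at 8 h. Of the 36030 peaks of the p65 WT 30 min list, 1254 (3.48%) met the rule, out of 96700 merged regions in all 12 lists of the series. Of the 5209 p65 sites that met the p65 part of the rule, these 1254 are 24.07%, while 1930 (37.05%) had SOCS1 in WT at only 1 of the LPS times and 2025 (38.88%) at neither. The calls of 8 lists, all 6 of p65 and SOCS1 in WT after LPS, thus chose the sites and are given as description. Of all 36030 peaks, a p65 peak overlapped 40.2% in KO at 8 h, 64.4% in KO at 30 min, 13.1% in KO control, 46.3% in WT at 8 h and 12.1% in WT control, and a SOCS1 peak overlapped 21.7% in WT at 8 h and 28.9% at 30 min. The SOCS1 lists of KO cells and of untreated WT cells, gene positions and sequence played no part in the choice.

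The study mapped p65 and SOCS1 by CUT&RUN, in which an antibody guides a nuclease to cut the DNA around its target, in bone-marrow-derived macrophages of mice grown with M-CSF. The groups used here are KO cells with LPS for 30 min or 8 h, KO control cells, WT cells with LPS for 30 min or 8 h, and WT control cells, all LPS at 100 ng/mL. The design text names a NOS1 KO and a C65BL6 wild type, the sample labels say only KO and WT, and the series title concerns SOCS1. Peak lists measure no expression, so neither the disrupted gene nor the cell type could be checked by its transcripts. Each group has 1 library per antibody, between 6.93 and 18.4 M tags, so no difference between groups was tested, intervals cover counting error only, and variation between animals or cultures is unknown. The p65 and SOCS1 lists of a genotype and treatment were called against the same IgG library, and cells were fixed briefly with formaldehyde.

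p65, the RELA subunit of NF-κB, is held in the cytoplasm by IκB proteins and enters the nucleus when TLR4 signalling leads to their breakdown; it binds κB sequences and activates inflammatory genes. Among those genes are the IκB proteins and other feedback inhibitors, so p65 binding in macrophages comes in waves. SOCS1 is an LPS-induced and interferon-induced protein that inhibits JAK kinases through its SH2 domain and carries a SOCS box for ubiquitin ligation, and nuclear SOCS1 has been described as a partner of p65.

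The promoters of 5 genes with a member near their start show sequence near such sites. They were picked after their values were seen, from the 14 of 289 member promoters with a κB word before the start site and, for Gbp2, from the interferon-stimulated genes. Tnip1 encodes a partner of the deubiquitinase A20, Ebi3 a subunit of IL-27, Sirt6 a nuclear deacylase, Fos an AP-1 subunit and Gbp2 an interferon-induced GTPase. Each line gives the 250 bases before a start site of RefSeq (GRCm38.p6, the mm10 build), 5′ to 3′ on the strand of the gene. Capitals mark κB words in the first 4 and the interferon-response word (GAAA, a pair of any bases, GAAA) in Gbp2. The words of Fos and Gbp2 are read on the opposite strand.
Tnip1: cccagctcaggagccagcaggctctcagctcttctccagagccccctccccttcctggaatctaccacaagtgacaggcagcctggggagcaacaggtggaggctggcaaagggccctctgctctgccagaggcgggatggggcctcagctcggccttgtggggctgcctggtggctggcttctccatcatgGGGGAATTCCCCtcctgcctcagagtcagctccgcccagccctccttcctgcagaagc
Ebi3: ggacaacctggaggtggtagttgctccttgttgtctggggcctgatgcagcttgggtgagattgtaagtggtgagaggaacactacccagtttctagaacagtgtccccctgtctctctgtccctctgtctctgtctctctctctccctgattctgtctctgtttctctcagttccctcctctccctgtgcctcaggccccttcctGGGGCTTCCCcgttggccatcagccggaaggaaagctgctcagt
Sirt6: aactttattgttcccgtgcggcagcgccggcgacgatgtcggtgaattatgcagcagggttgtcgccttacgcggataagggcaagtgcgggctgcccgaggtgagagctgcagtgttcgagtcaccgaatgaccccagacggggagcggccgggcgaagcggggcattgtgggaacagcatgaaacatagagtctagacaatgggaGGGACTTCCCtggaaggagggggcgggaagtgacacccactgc
Fos: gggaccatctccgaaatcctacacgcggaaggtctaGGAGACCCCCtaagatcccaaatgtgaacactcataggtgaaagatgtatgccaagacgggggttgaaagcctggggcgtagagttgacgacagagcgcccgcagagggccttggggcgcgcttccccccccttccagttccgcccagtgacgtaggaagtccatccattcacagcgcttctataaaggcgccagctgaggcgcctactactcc
Gbp2: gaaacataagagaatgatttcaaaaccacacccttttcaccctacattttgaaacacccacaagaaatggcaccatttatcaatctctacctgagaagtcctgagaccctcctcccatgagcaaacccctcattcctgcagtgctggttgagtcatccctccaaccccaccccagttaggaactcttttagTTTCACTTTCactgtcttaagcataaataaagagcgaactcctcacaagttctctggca
The stretches are chr11:54962941-54963190 (minus strand), chr17:55952373-55952622 (plus), chr10:81627323-81627572 (minus), chr12:85473640-85473889 (plus) and chr3:142620413-142620662 (plus). The κB word began 58 bases before the start site in Tnip1, 44 in Ebi3, 43 in Sirt6 and 214 in Fos. Its centre lay 126, 131, 164 and 42 bp from the centre of the p65 peak in these 4 genes. The interferon-response word of Gbp2 had its centre 185 bp from the p65 centre. The peak of the WT 30 min list is 254 bp wide, so the words of Tnip1 and Ebi3 sat at its edge and those of Sirt6 and Gbp2 outside it.

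Over all members with a start site nearby, the share with a κB word lay close to that of promoters at large. Of 289 promoter windows (250 bases before to 50 after a start site) whose gene end and start site lay within 1 kb of a member, 15 held GGG, a pair of any bases and TTTCC or the κB consensus word (GGG, a purine, any base, A or T, a pair of pyrimidines and CC) on either strand, which is 5.19% (95% interval 2.93 to 8.42%). The share was 6.46% of 6630 windows chosen in the same way around any p65 WT 30 min peak and 5.31% of all 32817 windows. It was 8.94% of 358 windows (6.19 to 12.38%) around sustained sites with SOCS1 at 1 WT time. Around those without SOCS1 it was 8.16% of 282 windows (5.24 to 11.99%). GGGCGG, the core of the SP1 site, stood in 63.67% of member windows, 67.03% of windows near any p65 peak and 35.63% of all windows. The AP-1 word TGANTCA stood in 3.46%, 4.51% and 7.81%, the STAT word TTCNNNGAA in 7.96%, 6.91% and 8.29%, and the interferon-response word in 4.15%, 3.26% and 3.43%. GAGGAAGT (PU.1) and TTGCNNCAA (C/EBP) stood in 2.77% and 1.04% of member windows, against 3.20% and 2.08% of all windows. A word is a match of letters, not a bound site, and members far from start sites have no sequence here.

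κB words were also counted by distance from the p65 centre. Members had 2 words in 18.46 kb of promoter window within 100 bp of the p65 centre, 5 in 22.29 kb at 100 to 200 bp and 7 in 21.91 kb at 200 to 300 bp, which is 1.08, 2.24 and 3.20 words per 10 kb. At 300 to 400 and 400 to 500 bp they had 1.22 and 1.15 per 10 kb, as low as at the centre. Around all p65 WT 30 min peaks the 5 bins held 1.86, 2.88, 2.72, 2.08 and 2.39 words per 10 kb, beside 1.84 per 10 kb over all windows. The counts at members are small, and overlapping words were counted as 1.

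**Figure D1:**
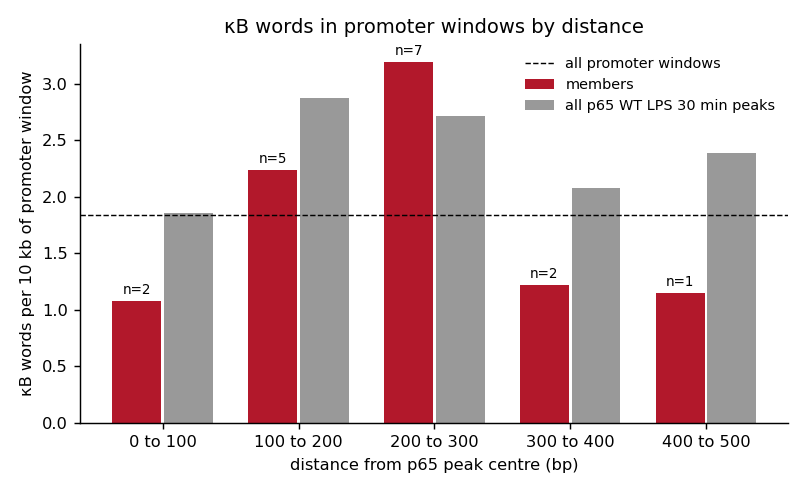
κB words per 10 kb of promoter window (y axis) by distance from the centre of the p65 WT 30 min peak in bp (x axis), for members (red, with the number of words) and all peaks of the list (grey), with the density over all windows as a dashed line. Within 100 bp members had 2 words, and the bin of 200 to 300 bp had 7.

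Members were strong p65 sites, as levels in each list show. A level here is a peak's tag count after the authors' scaling of every library to 10000000 tags (10 M). In KO cells the median p65 level at members was 73.2 at 8 h (middle 50% of sites 45.5 to 117.7) and 72.85 at 30 min (45.3 to 124.4). In WT cells it was 51.0 at 8 h (29.3 to 84.0) and 69.6 at 30 min (42.9 to 110.6). The sustained sites with no SOCS1 in WT had medians of 35.0 and 25.5 in KO and 19.8 and 25.5 in WT at 8 h and 30 min, and the whole WT 30 min list had a median of 23.6. Of the members, 945 (75.36%) fell in the top 25% of the list by p65 score, the number of tags at no more than 1 per bp, and 7 in the lowest 25%. The SOCS1 median at members was 24.7 at 8 h and 32.3 at 30 min in WT. IgG tags were also more numerous at members, with a median of 3.0 per peak in the WT 30 min list against 1.5 at sustained sites without SOCS1 and 1.0 in the whole list. Their part in the levels was not tested.

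**Figure D2:**
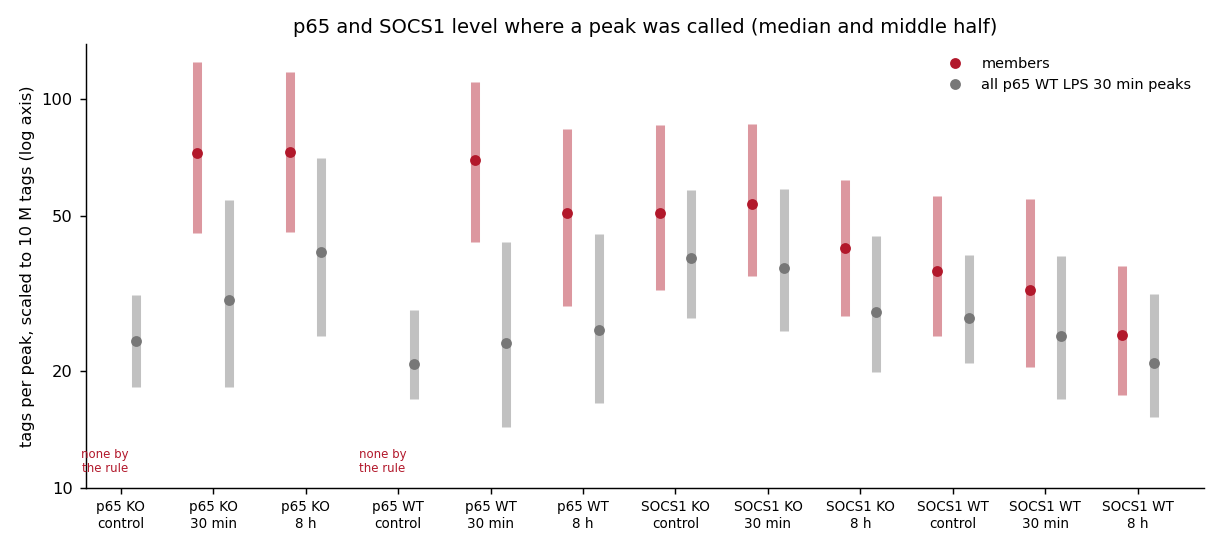
Tags per peak scaled to 10 M (y axis, log scale) in each list (x axis), for members (red) and all p65 WT 30 min peaks (grey) where a peak was called; points are medians and bars the middle 50% of sites. Members had no control p65 peak by the rule and lay above the grey medians in all 10 other lists.

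SOCS1 and p65 peaks at members overlap by the rule, which bounds the distance between their centres. SOCS1 centres at 8 h in WT lay a median of 28.0 bp from the p65 WT 30 min centre, and those at 30 min 29.5 bp. The largest distances were 257 and 238 bp, and 71.05% and 71.93% of members were within 50 bp. Sustained sites with SOCS1 at 1 WT time, where called, had medians of 38 and 34 bp. Of these, 61.12% and 64.26% were within 50 bp. Across the 1254 members the log2 levels of p65 and SOCS1 of the same WT library pair had a Pearson r of 0.66 at 8 h and 0.68 at 30 min. The p65 levels of KO and WT had an r of 0.85 at 8 h and 0.92 at 30 min. The points of such a correlation share 2 libraries and their depth, and only called peaks enter.

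The strongest member stood between genes, 62722 bp from Tnfaip3, which encodes A20, the deubiquitinase that restrains NF-κB signalling. At chr10:19078005-19078259 p65 had 528.7 scaled tags at 8 h and 1372.5 at 30 min in KO, against 708.7 at 8 h and 961.6 at 30 min in WT. SOCS1 was called there after LPS in both genotypes, with 112.6 at 8 h and 188.3 at 30 min in KO and 180.9 and 268.9 in WT, and in neither control list. The p65 level was lower at 8 h than at 30 min in both genotypes, and the log2 ratio was -1.38 in KO (counting interval -1.51 to -1.24) and -0.44 in WT (-0.57 to -0.31).

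The 20 members of the highest p65 score were mostly distal: 6 had a gene end within 10 kb and 12 lay inside a gene. They were chosen by their score at 30 min in WT, which favours a high level in that library. All 20 had less p65 at 8 h than at 30 min in KO and in WT. Of all 1254 members, 666 were lower at 8 h in KO and 953 in WT by tags. At 30 min 19 of the 20 had more p65 in KO than in WT, as did 766 of all members. A SOCS1 peak of KO cells covered 9 of the 20 in control, 19 at 30 min and 14 at 8 h, and a WT control SOCS1 peak covered 2. The second strongest lay inside Adam17, which encodes the protease that sheds TNF, with p65 at 293.7 at 8 h and 548.7 at 30 min in KO and 239.9 and 468.4 in WT. A site in Nod2, the sensor of muramyl dipeptide, had 325.9 at 8 h and 708.2 at 30 min in KO and 280.5 and 535.6 in WT. The sites in Adam17 and Nod2 share the order of the libraries: KO at 30 min was the highest, WT at 30 min next, and both 8 h libraries were lower. Not all of the 20 had this order. Others of the 20 lay near Pim1 (a kinase induced by cytokines), Mcl1 (an anti-apoptotic BCL2 family protein), Zfp719 (a zinc finger protein), Il10rb (a chain of the IL-10 receptor) and Tgif1 (a homeodomain repressor), and inside Ifitm10, Fnip1, Slx4ip, Jazf1, Vps13d, Rab20 and Sox5. Of the 20, Tgif1 alone had no SOCS1 peak in any KO or control list, although SOCS1 in WT had 173.5 tags at 8 h and 172.9 at 30 min.

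SOCS1 was highest at a partly different set. The top SOCS1 level at 30 min in WT was at Rpl7 (a ribosomal protein), 202 bp from a gene end, with 126.7 tags at 8 h and 491.1 at 30 min. Its p65 level was 34.1 at 8 h and 70.8 at 30 min in KO and 22.7 and 60.8 in WT, near the member medians at 30 min and below the middle 50% of members at 8 h in both genotypes. SOCS1 was called at Rpl7 in all 6 lists, and before LPS it had 554.9 tags in KO and 414.2 in WT. Hnrnpa1 (an RNA-binding protein) and Nr1d1 (REV-ERBα, a clock repressor) were also called for SOCS1 in all 6 lists, with 116.2 and 151.9 tags in WT at 8 h and 328.9 and 219.1 in WT at 30 min. At 8 h the highest SOCS1 level was near Wdr81, 195.6 tags, against 157.5 at 30 min, and there SOCS1 was called in both control lists but in KO neither at 30 min nor at 8 h.

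SOCS1 peaks of KO cells and of untreated WT cells, which the rule did not use, were more frequent at members than at the other sustained sites. In KO control cells 464 members had one, 37.0% (95% exact interval 34.3 to 39.7%), against 16.9% of sustained sites without SOCS1 in WT and 23.4% of all p65 WT 30 min peaks. In KO at 30 min 872 members had one, 69.5% (66.9 to 72.1%), against 27.7% and 30.9%. In KO at 8 h the number was 822, 65.6% (62.9 to 68.2%), against 31.1% and 24.7%. In WT control cells it was 277, 22.1% (19.8 to 24.5%), against 8.10% and 13%. The sites with SOCS1 at 1 WT time lay between members and sites without SOCS1 in each of the 4 lists, at 26.4%, 50.4% and 48.5% in KO and 14.4% in WT control.

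Strong p65 peaks of any class also had more SOCS1 calls, so the shares were also taken within the top 25% of peaks by p65 score. Scores there ran between 41 and 242.5, and the classes were not matched in score within that range. Without this limit the median score was 58 at members and 27.5 at sustained sites without SOCS1 in WT. The part of such score differences in the shares was not tested. Among the 9008 peaks of the top 25% by p65 score, 41.2% had SOCS1 in KO control and 26.3% in WT control. The 945 members there had 39.5% (36.3 to 42.7%) and 22.8% (20.1 to 25.6%), so members were not above strong peaks in general before LPS. After LPS members were above them, with 77.0% against 63.1% in KO at 30 min and 68.4% against 48.3% in KO at 8 h. Against the other sustained sites of the same top 25%, members were higher before LPS too. Sites with SOCS1 at 1 WT time had 30.29% in KO control and 18.03% in WT control. Those without SOCS1 in WT had 23.46% and 12.35%. The contrast between before and after LPS thus depended on the peaks chosen for comparison. Over the KO lists, 278 members (22.2%) had SOCS1 in all 3, 490 (39.1%) in 2, 344 (27.4%) in 1 and 142 (11.3%) in none. Over all p65 WT 30 min peaks the shares were 7.18%, 15.3%, 26.8% and 50.65%. Before LPS, SOCS1 was called at 330 members in KO alone, 143 in WT alone and 134 in both. Over all p65 WT 30 min peaks these counts were 6216, 2460 and 2228. In neither control list were 647 members (51.6%), against 69.7% of all those peaks. The KO control list holds 24270 SOCS1 peaks with a lowest score of 7, the WT control list 9438 with 9. IgG tags were at their lowest value at 88.0% of the KO control peaks and 34.3% of the WT control peaks. The part of these list differences in the counts was not tested. All 6 SOCS1 lists covered 92 of the 1254 members and 476 of all 36030 p65 WT 30 min peaks.

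**Figure D3:**
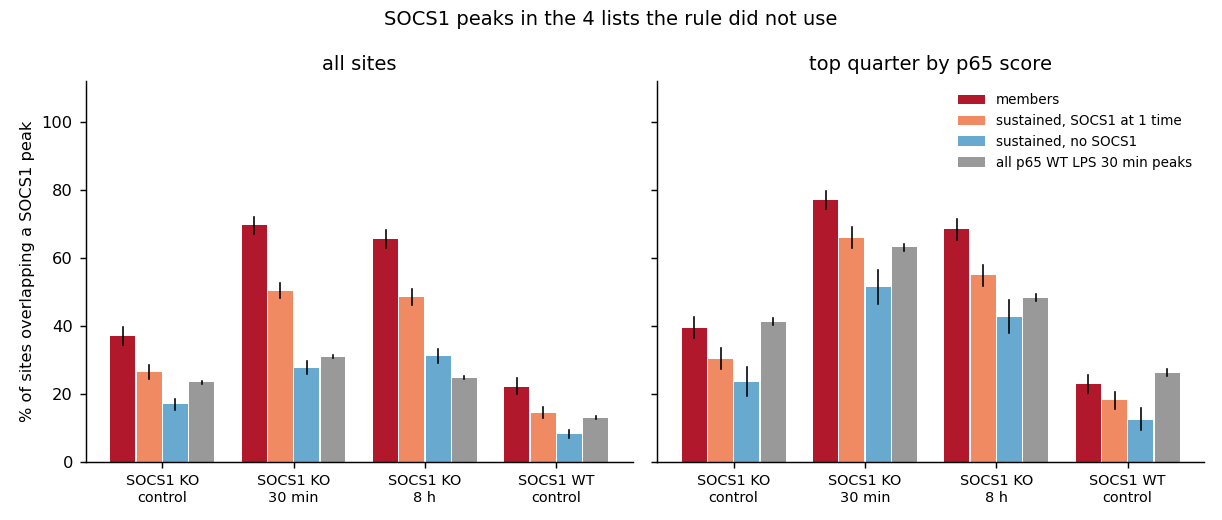
Share of sites overlapped by a SOCS1 peak (y axis, percent) in the 4 SOCS1 lists outside the rule (x axis), for all sites (left panel) and the top 25% by p65 score (right panel); black lines are exact 95% intervals. Members (red) lead in all 4 lists on the left, and on the right only in the KO lists at 30 min and 8 h.

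Between 30 min and 8 h the p65 level was lower at most members in WT. The median log2 ratio of 8 h over 30 min was -0.54 in WT, with 953 members lower and 300 higher, beside -0.52 over all 16697 peaks of the WT 30 min list that were also called at 8 h. In WT 290 members were more than 2-fold lower, 23.1% of members against 22.2% of all such peaks, and 54 were more than 2-fold higher, 4.31% against 4.28%. In KO the median was -0.07, beside 0.18 over all peaks called at both times, and 194 members (15.5%) were more than 2-fold lower and 182 (14.5%) higher, against 9.53% and 17.8%. The KO peaks are 493 bp wide at 8 h and 222 bp at 30 min, and the direction in KO turned with the measure. Per bp of width the KO median was -1.22, and from scores over depth it was 0.35. In WT, where widths were 239 and 254 bp, the median was also below 0 by both measures, at -0.45 and -0.21. SOCS1 at members had a median of -0.42 in WT, with 299 (23.8%) more than 2-fold lower and 57 (4.55%) higher, against 25.6% and 2.64% of all p65 peaks with SOCS1 at both times. From scores over depth that median was -0.03. In KO the SOCS1 median was -0.43 over the 630 members called at both times, with 121 (19.2%) more than 2-fold lower and 18 (2.86%) higher, against 19.4% and 2.83% of all p65 peaks called for SOCS1 at both. That KO median was 0.29 from scores over depth.

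Members near a gene end had the lowest ratios. In WT the median log2 ratio was -0.74 for the 296 members with a gene end within 1 kb, -0.43 for the 515 others inside a gene and -0.51 for the 443 outside genes. All p65 WT 30 min peaks had -0.70, -0.44 and -0.41 in the same classes, so the lower ratio at gene ends is not particular to members. The SOCS1 medians in WT were also lowest there, with -0.74, -0.34 and -0.35 at members. All p65 WT 30 min peaks with SOCS1 at both times had -0.76, -0.43 and -0.39. Members near a gene end more often had SOCS1 in the control lists. The shares were 49.7% in KO (43.8 to 55.5%) and 30.1% in WT (24.9 to 35.6%). Inside genes they were 34.0% and 20.0%, and outside 32.1% and 19.2%. All p65 WT 30 min peaks had 36.3%, 20.3% and 18.9% in KO control in the same classes. In WT control they had 19.4%, 11.7% and 10.4%, so this order too is not particular to members.

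The members with the highest 8 h level relative to 30 min in WT had at most 59.7 p65 tags at 30 min in WT. A choice by this ratio itself favours low levels at 30 min. None of these members had SOCS1 in a control list, as was so for 51.6% of all members. A gene end lay within 10 kb of 2 of the 10. Procr, the endothelial protein C receptor, had a member with 162.3 tags at 8 h and 17.6 at 30 min in KO and 102.5 and 16.9 in WT, a log2 ratio of 3.21 (2.68 to 3.82) in KO and 2.60 (1.92 to 3.29) in WT. A member inside Dap, a death-associated protein gene, had log2 ratios of 1.54 in KO and 2.56 in WT. All 10 were higher at 8 h in KO as well, per bp included (0.20 or more), and their WT ratios ran between 2.12 and 3.20. Near Ctu1, inside Siglece (an inhibitory sialic acid receptor of myeloid cells), p65 had 492.3 at 8 h and 312.5 at 30 min in KO, a ratio per bp of -0.50, and 604.8 and 216.9 in WT. SOCS1 there had 128.8 tags at 8 h and 44.1 at 30 min in WT and no peak in the 4 other lists. A member 38756 bp from Acsl1 (a long-chain acyl-CoA synthetase) had SOCS1 at 111.5 at 8 h and 28.7 at 30 min in WT, with p65 at 513.7 and 154.6.

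The lowest ratios in WT ran between -3.35 and -2.24, and 1 of these 10 members had a gene end within 10 kb. It lay near Ddit4 (REDD1, an inhibitor of mTORC1), with 30.5 p65 tags at 8 h and 168.2 at 30 min in KO and 30.2 and 143.0 in WT. The lowest of all lay inside Ptchd1, with 25 and 230.3 in KO and 16.5 and 168.1 in WT. In 9 of the 10 the KO level was lower at 8 h too; the exception lay inside Ptpn5, with 67.3 at 8 h and 46.4 at 30 min in KO, where the ratio per bp was below 0 as well.

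**Figure D4:**
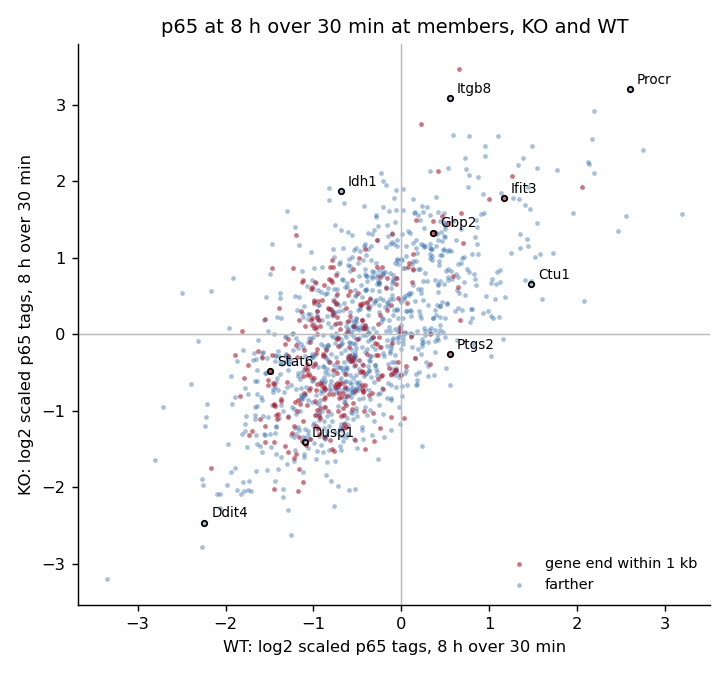
log2 ratio of scaled p65 tags, 8 h over 30 min, in KO (y axis) and in WT (x axis) for each of the 1254 members; red points have a gene end within 1 kb, and named members carry a black ring. Procr and Ifit3 lie at the upper right, Ddit4 and Dusp1 at the lower left, and Idh1 is high in KO and low in WT.

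KO and WT levels at 30 min were close, with a median log2 ratio of KO over WT of 0.11 at members and 0.00 over all shared peaks. Only 14 members (1.12%) were more than 2-fold higher in KO and 4 (0.32%) more than 2-fold lower, against 1.12% and 1.19% of all shared peaks. The median changed sign to -0.10 when scores over depth replaced tags. The highest ratio was at a member 21059 bp from Fer1l6, 56.4 tags in KO and 19.5 in WT, and others lay inside Trim37, Dlg4, Pum2, Rxra and Dap. The lowest were 10078 bp from Cpd (71.3 in KO and 167.4 in WT), inside Ptpn5 (46.4 and 103.6) and at Tango6 (37.2 and 76.2).

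At 8 h the level was higher in KO at most members, with a median log2 ratio of 0.49, beside 0.68 over all shared peaks, and 254 members (20.3%) were more than 2-fold higher against 29.1% of all, while 3 (0.239%) were more than 2-fold lower against 0.123%. Since the KO peaks at 8 h are wider, 493 against 239 bp, the median per bp of width was -0.55. The 10 highest members kept a ratio above 0 per bp, between 0.93 and 1.35. The site near Itgb8, an integrin gene whose product activates TGF-β, had 556.9 tags in KO and 121.8 in WT. Kat2b, the gene of the acetyltransferase PCAF, had 118.2 in KO and 24.6 in WT. H2-Oa, a regulator of peptide loading on class II molecules, had 113.2 in KO and 28.3 in WT. F7, Camk2d and sites inside Pik3r5 and Myo5a were also among the 10. At Itgb8 the 30 min levels were 65.6 in KO and 82.9 in WT. The lowest ratios at 8 h ran between -1.44 and -0.73, and lay 33140 bp from Ofcc1 (15.5 in KO and 42.0 in WT), inside Eed, Bahcc1, Grap2 and Runx1 (110.0 and 192.6), and at Nup205 and Lilra5. SOCS1, where called in both genotypes, had a median log2 ratio of KO over WT of 0.62 at 8 h (822 members) and 0.52 at 30 min (872 members), and 29.2% and 30.6% were more than 2-fold higher, against 29.9% and 27.7% of all p65 peaks called for SOCS1 in both. More than 2-fold lower were 0.730% and 2.41%, against 0.492% and 2.01% of all. These peaks too were wider in KO, 375 bp against 260 at 8 h and 396 against 227 at 30 min, and per bp the medians were 0.10 and -0.29.

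Members were spread along the genome, a minority of them at gene ends. Of the 1254, 296 (23.6%, 21.3 to 26.1%) had a gene end within 1 kb, against 16.6% of sustained sites without SOCS1 and 22.6% of all p65 WT 30 min peaks. A further 41.1% lay inside a gene and 35.3% outside, and 206 were more than 50 kb from any gene end. The median distance to the nearest other member was 260323.5 bp, and 20 pairs were closer than 10 kb. Within 10 kb of a member were 957 of 21887 protein-coding genes, 4.37%. The share was 5.64% for the 1930 sustained sites with SOCS1 at 1 time and 5.00% for the 2025 without. These are shares of genes, and the sets differ in size. By site, 49.84% of members had a gene end within 10 kb, against 44.92% and 39.75% of those sustained sites. Over all p65 WT 30 min peaks it was 48.71%. No gene had more than 2 members, and the 23 with 2 include Zc3h12a, Adipor1, Cyb5r1 and Chrna9.

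The 4 pro-inflammatory cytokine genes with a member had less p65 late than early, as did most members in WT. Of 20 pro-inflammatory cytokine genes 4 had a member within 10 kb, against 4.37% of all genes, and of 18 chemokine genes 4 had one; all 20 and 17 of the 18 had some p65 WT 30 min peak, as did 58.9% of all genes. The Ebi3 promoter site, 171 bp before the start site, had p65 at 134.6 at 8 h and 224.9 at 30 min in KO and 157.2 and 226.3 in WT. Il27, which encodes the partner subunit of Ebi3 in IL-27, had a member 4357 bp from its end with 146.4 and 348.0 in KO and 159.1 and 256.0 in WT. Il12b (the p40 chain of IL-12 and IL-23) had a member 9753 bp before its start site with 90.9 and 153.5 in KO and 68.9 and 101.7 in WT, and Tnfsf9 (the 4-1BB ligand) had one with 68.2 and 189.1 in KO and 58.1 and 162.9 in WT. At all 4 sites the p65 level was lower at 8 h than at 30 min in both genotypes, per bp as well. Of all 1254 members, 666 were lower in KO and 953 in WT by tags, and the KO median log2 ratio per bp was -1.22. For the members that follow, a KO level that is higher at 8 h can turn when divided by the peak widths of 493 bp at 8 h and 222 bp at 30 min, and the ratio per bp is given where it does.

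At 2 of the 3 chemokine sites the order by tags was the other way, though at Ccl17 in WT the counting interval included 0. Between Ccl2 and Ccl7, genes of monocyte attractants, a single member had p65 at 142.3 at 8 h and 97.6 at 30 min in KO and 173.8 and 110.3 in WT, and SOCS1 at 154.6 and 69.3 in WT. The log2 ratio of p65 was 0.54 (0.23 to 0.86) in KO and 0.66 (0.33 to 0.98) in WT. Per bp it was -0.61 in KO and 0.74 in WT. SOCS1 was also called there in WT control cells, with 124.1 tags. Ccl12 had a member 345 bp before its start site with p65 at 75 and 122.9 in KO and 83.6 and 114.1 in WT. Ccl17 had a weak one, 52.3 and 23.6 in KO, a ratio per bp of 0.00, and 24.6 and 20.3 in WT. Its WT log2 ratio was 0.28, with a counting interval of -0.56 to 1.11.

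None of the 5 NF-κB subunit genes had a member, and 2 of 16 genes of IκB proteins and NF-κB feedback regulators had one. At the Tnip1 promoter p65 had 185.5 tags at 8 h and 532.7 at 30 min in KO and 230.4 and 393.0 in WT, and a second member inside Tnip1, 25655 bp from the gene end, had 251.8 and 204.8 in KO and 382.4 and 193.3 in WT. The promoter and the intragenic site of Tnip1 thus had opposite directions over time in both genotypes, with log2 ratios of -1.52 and 0.30 in KO and -0.77 and 0.98 in WT. Per bp the intragenic ratio in KO was -0.85, so the opposite directions held by both measures in WT alone. Zc3h12a, which encodes the ribonuclease Regnase-1, had both a stronger and a weaker member. The stronger had p65 at 270.5 at 8 h and 203.4 at 30 min in KO and 257.3 and 179.4 in WT, with a ratio per bp of -0.74 in KO, and no SOCS1 peak outside WT LPS. The other had SOCS1 peaks in KO after LPS, 155.1 at 8 h and 138.4 at 30 min, against 123.6 and 194.5 in WT.

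Members at the interferon-stimulated genes had more p65 late than early in both genotypes, per bp included. At the Gbp2 promoter p65 had 320.5 at 8 h and 128.0 at 30 min in KO and 165.3 and 128.4 in WT, and SOCS1 had 82.4 and 39.5 in KO and 70.5 and 24.1 in WT, with no SOCS1 peak in either control list. KO at 8 h was the highest of the 4 p65 libraries at Gbp2 by tags. Per bp of width the log2 ratio of KO over WT at 8 h was -0.09. A member at Ifit3, shared with its neighbour Ifit2, both genes of antiviral RNA-binding proteins, had p65 at 80.9 and 23.6 in KO and 79.3 and 35.3 in WT. Of 28 interferon-stimulated genes these 3 had a member. Of 18 antigen presentation genes 5 had one, from 3 sites. The site shared by Tap1 and Psmb9, a peptide transporter and an immunoproteasome subunit with a common promoter, went the other way with 104.1 and 273.1 in KO and 79.8 and 174.2 in WT. The site shared by Tap2 and Psmb8 had 57.3 and 28.8 in KO but 30.7 and 42.8 in WT, and per bp the KO ratio was -0.16. The counting interval of its WT log2 ratio, -1.12 to 0.19, included 0. Cd40, the costimulatory receptor gene, had 115.9 and 154.6 in KO and 115.2 and 111.1 in WT.

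Of 30 JAK-STAT and SOCS family genes 4 had a member, from 3 sites, and no SOCS family gene was among them. Stat6, the transcription factor of the IL-4 response, had a member 239 bp before its start site with p65 at 64.6 at 8 h and 90.3 at 30 min in KO and 44.9 and 126.1 in WT, and SOCS1 was called there in all 6 lists. Tyk2, a Janus kinase gene, had an intragenic member with 226.8 and 137.5 in KO, a ratio per bp of -0.43, and 128.0 and 86.0 in WT. The member at Stat5a and Stat5b had 73.2 and 63.5 in KO and 57.1 and 66.4 in WT, with -0.95 per bp in KO. Of 28 TLR4 signalling genes, Ikbke (the kinase IKKε) and Tirap (an adaptor of TLR4) had one within 10 kb, and both were lower at 8 h in WT. Neither is the gene nearest to its site. The first site lay 8176 bp from an end of Ikbke and 1246 bp from Rassf5. The second lay 8549 bp from an end of Tirap and inside Dcps, 145 bp from an end of Dcps. Near Ikbke p65 had 64.1 at 8 h and 60.5 at 30 min in KO, a ratio per bp of -1.07, against 17.9 and 69.8 in WT. Near Tirap it had 56.8 and 78.9 in KO and 22.7 and 47.7 in WT.

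Among 28 immediate-early and mRNA-decay genes 3 had a member. Dusp1, a phosphatase that inactivates MAP kinases, had p65 at 114.1 at 8 h and 303.5 at 30 min in KO and 127.5 and 272.9 in WT, 7948 bp from its end. The Fos promoter had 59.1 and 128.0 in KO and 38.7 and 103.2 in WT, and Ier5 had 163.2 and 73.5 in KO, equal per bp, and 55.2 and 69.8 in WT. Of 15 anti-inflammatory genes 3 had a member: Adora2a, an adenosine receptor, Gpr84, a receptor of medium-chain fatty acids, and Il1rn, the IL-1 receptor antagonist. Adora2a had 500 and 290.5 in KO and 449.5 and 290.5 in WT, higher at 8 h in both by tags, with -0.37 per bp in KO. Gpr84 had 141.8 and 131.3 in KO and 69.4 and 100.6 in WT. Il1rn had 77.3 and 51.8 in KO and 37.8 and 50.3 in WT. By tags both were higher at 8 h in KO and lower in WT, with -1.04 and -0.57 per bp in KO. The counting intervals of the log2 ratio in KO at Gpr84 (-0.19 to 0.41) and in WT at Il1rn (-1.02 to 0.17) included 0. Of 20 antimicrobial and redox genes 4 had one, as did the same number with sustained sites lacking SOCS1 in WT. At the Ptgs2 promoter (cyclooxygenase-2) p65 had 105.9 at 8 h and 127.2 at 30 min in KO and 132.7 and 90.5 in WT. Slc11a1 (the metal transporter NRAMP1) had 137.7 and 348.5 in KO and 194.5 and 223.3 in WT and no SOCS1 peak outside WT LPS. Lyz2 (lysozyme) had 105.5 and 96.0 in KO and 45.8 and 77.3 in WT, and Hmox1 (haem oxygenase) had 94.6 and 55.1 in KO and 45.8 and 55.2 in WT, and per bp their KO ratios were -1.02 and -0.37.

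Other lists had members as well, housekeeping genes included. Of 15 housekeeping genes 3 had a member (Polr2a, Gusb and Rpl13a), of 20 macrophage identity genes 3 (Fcgr3, Cebpa and Fcgr1), of 16 survival genes 2 (Mcl1 and Bcl2l11), of 25 chromatin regulators 2 (Hdac1 and Hdac5) and of 20 glycolysis genes Hif1a alone. Of genes that mark other cells, Xcr1 and Ccr7 of 10 dendritic cell markers (20.0%), Ltf of 12 neutrophil markers (8.33%), none of 14 lymphocyte markers and none of 20 neuronal and hepatic genes had a member. Marcksl1, G6pc3 and Slc35g3 lay nearer to the sites of Hdac1, Hdac5 and Polr2a than these genes did. At the Polr2a site p65 had 101.8 at 8 h and 150.3 at 30 min in KO and 87.8 and 179.4 in WT. The highest share was 27.8%, of antigen presentation genes, and the same list had 22.2% with sustained sites that lacked SOCS1 in WT. Genes of these lists are mostly p65-bound in macrophages, and the lists are short, so their counts are given without a test.

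**Figure D5:**
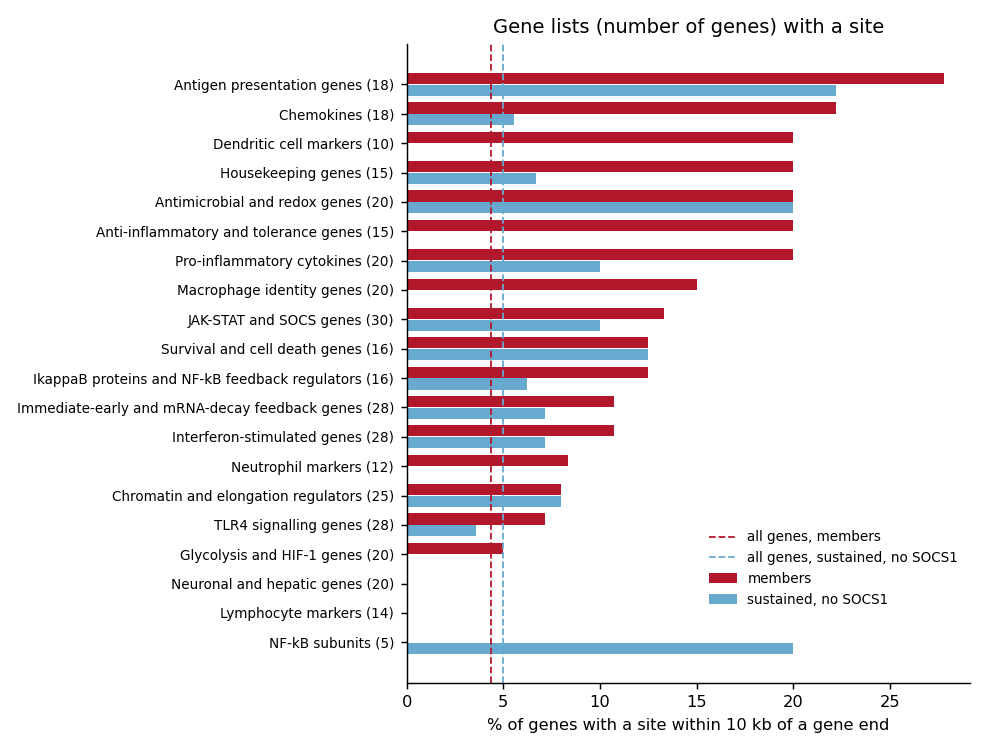
Share of the genes of each list (y axis, number of genes in parentheses) with a site within 10 kb of a gene end (x axis, percent), for members (red) and sustained sites without SOCS1 in WT (blue); dashed lines give the same over all protein-coding genes, 4.37% and 5.00%. Antigen presentation genes have the highest share of members, 27.8%, and NF-κB subunits, lymphocyte markers and neuronal and hepatic genes have none.

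Members also lay near 21 of 1005 microRNA hairpins of RefSeq (2.09% within 10 kb). The share was 3.18% for sustained sites without SOCS1 and 43.1% for all p65 WT 30 min peaks. These sets hold 1254, 2025 and 36030 sites, and the shares are of hairpins, not of sites. Mir22 and Mir146b are shown because both are expressed in macrophages and miR-146 is known to repress adaptors of TLR signalling; they were picked after their values were seen. Capitals mark the seed, bases 2 to 8, and the seeds differ.
miR-22-3p: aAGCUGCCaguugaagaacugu
miR-146b-5p: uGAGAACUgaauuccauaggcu
The member 3324 bp from Mir22 is the one near Wdr81 with the top SOCS1 level at 8 h, with p65 at 171.4 at 8 h and 175.8 at 30 min in KO and 130.8 and 201.6 in WT. The member 3176 bp from Mir146b lies 914 bp from an end of Cuedc2 and had p65 at 120.5 and 63.5 in KO, a log2 ratio per bp of -0.23, and 64.2 and 60.4 in WT. SOCS1 there had 46.3 tags at 8 h and 29.8 at 30 min in WT and a peak in all 3 KO lists.

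At the edge of the rule, 79 members had their smallest overlap under 50 bp, and the median smallest overlap was 180 bp. A member at chr13:29650800-29651054 met the p65 KO 8 h list by 1 bp, and those near Cyb5r1, Acly and Pank2 met a SOCS1 list by 2, 3 and 3 bp. Just outside, 2747 sites lacked a single list and 131 of them were under 100 bp short of it, among them sites near Atp8b4, Enpp7 and Card19 at 0, 1 and 1 bp. The centre of a p65 control peak lay within 1 kb of 230 members without overlap.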

How the data were processed

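CUT&RUN libraries of p65 and SOCS1, 1 per genotype and treatment, are given as 12 peak lists; 6 IgG libraries entered through the calls, and 2 internal control samples were not used here. Per the submitters' processing notes, cutadapt, Bowtie2 2.4.1, HOMER 4.11 and mm10 were used. Per the file headers, the authors ran findPeaks in factor mode on each library alone against the IgG of the same genotype and treatment, with an FDR of 0.001, a 4-fold excess over IgG and over the local 10 kb, and a Poisson p of 1e-04. The deposited signal is the tag count scaled to 10000000 tags. The deposited score counts tags at no more than 1 per bp. The deposited fold ratios compare each peak with IgG, local and clonal tags, the deposited focus ratio is a fraction, and the deposited p-values are those of the caller. Peak width is fixed within each list.

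Overlaps, ratios, shares with exact Clopper-Pearson 95% intervals (counting error only) and distances were computed with Python 3.11.15, pandas 2.3.3 and scipy 1.17.1, and checked on simulated data. Of several peaks of a list at a site the one of the highest score was taken. The interval of a site's ratio is the exact binomial interval of its tag counts in the 2 libraries, scaled by depth. Gene ends came from a RefSeq table of GRCm38.p6 (mm10) with 21887 protein-coding genes, and sequence from its promoter table. Text names the 20 members of the highest p65 score and the 10 highest by SOCS1 score at each time. It names the 10 highest and lowest of each p65 ratio and the genes with most members. Up to 4 genes per list and sites at the edge of the rule are named too. A site takes the nearest gene within 10 kb. In the gene lists a site counts for every gene with an end within 10 kb, which need not be the nearest. Members and lists were chosen with earlier results of these data known. Alternatives varied the overlap, score floor, local enrichment, measure and gene window.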

Additional observations from a re-analysis of the deposited data

Results flagged for a closer look

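At 4 members the p65 level at 8 h relative to 30 min went in opposite directions in KO and WT, with counting intervals that exclude 0, both by tags and per bp of peak width. The difference between the genotypes was not tested, since each has 1 library per time.

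Inside Idh1, the cytosolic isocitrate dehydrogenase gene, at chr1:65177947-65178201, p65 had 134.6 scaled tags at 8 h and 36.9 at 30 min in KO, against 40.1 at 8 h and 64.6 at 30 min in WT. The log2 ratio was 1.87 (1.44 to 2.30) in KO and -0.69 (-1.27 to -0.15) in WT. At chr11:76856959-76857213, 10078 bp from Cpd, the tags were 267.3 and 71.3 in KO and 94.9 and 167.4 in WT, with log2 ratios of 1.91 (1.61 to 2.22) in KO and -0.82 (-1.18 to -0.48) in WT. Inside Agpat4 at chr17:12170600-12170854 they were 262.3 and 77.8 in KO and 78.9 and 140.0 in WT, with log2 ratios of 1.75 (1.47 to 2.06) in KO and -0.83 (-1.21 to -0.45) in WT. The fourth site, chr9:40651432-40651686, 30564 bp from Clmp, went the other way, with 96.4 and 130.5 in KO and 131.3 and 92.3 in WT and log2 ratios of -0.44 (-0.78 to -0.11) in KO and 0.51 (0.15 to 0.87) in WT.

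By tags alone, with counting intervals that exclude 0 in both genotypes, 74 members were higher at 8 h in KO and lower in WT, of which 3 met this per bp as well, and 1 was the other way.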

How the results depend on the processing

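Of 40 alternative values, 18 were unchanged by the criteria used, 19 moved and 3 changed sign; the cause was not tested except where stated. The number of members was 1004 with an overlap of 50% of the shorter peak or more, 1042 with centres within 200 bp, 1167 with a score of 12 or more in every list, 998 with no control p65 peak within 1 kb and 565 with 8-fold local enrichment, a stricter call. The share with SOCS1 in KO control was 32.47% with the longer overlap, 32.44% by centres and 30.42% with the score floor. In KO at 30 min it was 73.27% with 8-fold enrichment, and in KO at 8 h 61.77% with 8-fold enrichment and 68.38% with the score floor.

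From scores over depth, the median log2 ratio of p65 at 8 h over 30 min was 0.35 in KO, a change of sign, and -0.21 in WT, that of KO over WT at 30 min was -0.10, a change of sign, and that of SOCS1 in WT at 8 h over 30 min was -0.034. Per bp of peak width the same p65 ratios over time were -1.22 in KO and -0.45 in WT, and KO over WT was 0.31 at 30 min and -0.55 at 8 h, the last a change of sign that follows from the KO peaks being 493 bp wide against 239 in WT. With 8-fold enrichment the ratio over time in KO was -0.27 and KO over WT at 8 h was 0.39. The share at a gene end was 19.5% within 500 bp and 30.9% within 2 kb. The number of genes was 351 within 1 kb, 2642 within 50 kb and 614 with the nearest gene alone, as windows of other sizes must give.

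No paired analysis was possible because each group has 1 library per antibody, and for the same reason none was left out. Depth between 6.93 and 18.4 M tags limits which weak peaks were called, and the lowest score called ran between 7 and 12 over the lists, so an absent call is not an absent protein.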
